A study of Rattus norvegicus with 9 samples.

Results

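Dyrk1a, C2cd2, Cd47, Scarb2 and Anxa3 are 5 rat genes that each had an Egr1 region listed as different between proestrus and diestrus females in the medial prefrontal cortex (mPFC), and that the study also lists among genes whose RNA differed. Egr1 is a transcription factor, and its binding was measured by ChIP-seq, in which DNA fragments bound by the factor are pulled down with an antibody and sequenced. The members were picked by those listings, so the proestrus versus diestrus values of their regions are the values that chose them and are given here as a description without a test. They are 5 of the 1554 genes that lay nearest to any of the 1774 proestrus versus diestrus regions, and each of them had 1 region. They are not all the genes that met both listings: Kit and Gabra2, for example, also seemed to meet them and were not included. The other genes used below for comparison can therefore include genes with an RNA difference. The RNA came from other animals and is not analysed here.

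The libraries came from tissue punches of the mPFC of Sprague-Dawley rats aged 8 weeks, a wild-type outbred strain. Egr1 ChIP-seq was available for 2 proestrus females, 4 diestrus females and 3 males, and each library was a separate biological sample. Females had been followed by daily vaginal smears over at least 2 cycles, and the rat estrous cycle lasts about 4 days. Proestrus is the stage at which estradiol peaks before ovulation, and diestrus is a stage of lower estradiol. Males carried no treatment and were killed on the same days as the females.

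As background, Egr1 is an immediate early gene: neurons switch it on within minutes of synaptic activity, and its zinc fingers bind GC-rich DNA near the genes that it regulates. It is widely used in the cortex as a marker of neuronal activity and plasticity. The 5 genes have separate roles. Dyrk1a encodes a dual-specificity protein kinase, and its dosage affects brain growth. C2cd2 encodes a protein with a C2 domain, a fold that often binds lipid membranes. Cd47 encodes a membrane protein that binds thrombospondin and serves as the ligand of Sirpa, through which it holds back phagocytosis by microglia and macrophages. Scarb2 encodes LIMP-2, a lysosomal membrane protein that takes part in the transport of proteins to the lysosome. Anxa3 encodes an annexin, a protein that binds phospholipids in the presence of calcium.

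All 5 regions lay away from the start of the gene to which they were assigned, as shown in the plot of positions. Coordinates are those of the Rnor_5.0 build. The Dyrk1a region (ENSRNOG00000001662) was at chr11:38433051-38433600 and lay upstream of the gene, with its centre 24.0 kb before the start. The C2cd2 region (ENSRNOG00000001621) was at chr11:41908851-41909350. It lay inside the gene, which runs on the minus strand, 20.8 kb past the start or 33.2% of the way along the gene. The Cd47 region (ENSRNOG00000001964) was at chr11:56710401-56711050 and also lay inside its gene on the minus strand, 28.2 kb past the start or 61.8% of the way along. The Scarb2 region (ENSRNOG00000002225) was at chr14:16968551-16969050, upstream of the gene, with its centre 11.5 kb before the start. The Anxa3 region (ENSRNOG00000002045) was at chr14:14365201-14365700, upstream of its gene on the minus strand, 14.0 kb before the start. Whether the regions inside C2cd2 and Cd47 fall in exons or introns was not analysed here, because the annotation used for them gives only the ends of each gene.

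**Figure D1:**
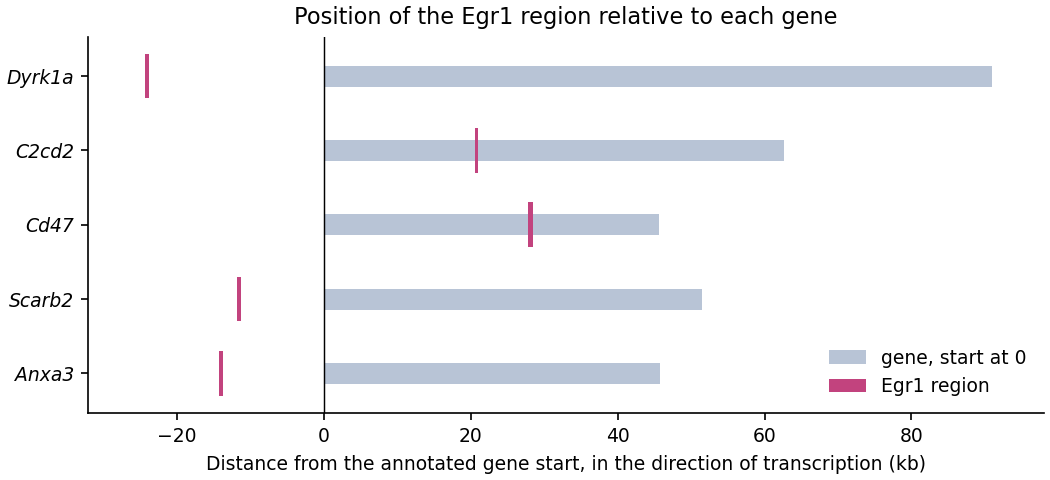
Position of each Egr1 region (pink) relative to its gene (grey bar), drawn to scale along the x axis in kb from the annotated start of the gene in the direction of transcription, with 1 row per gene. The regions of Dyrk1a, Scarb2 and Anxa3 sit 24.0, 11.5 and 14.0 kb before the start, and those of C2cd2 and Cd47 sit 20.8 and 28.2 kb into the gene.

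Regions inside their nearest gene were 2 of the 5 members, and over all proestrus versus diestrus regions 22.2% lay inside or overlapped the nearest gene. The remaining 3 members were upstream, as were 46.8% of all regions. The centre of the member regions was 11.5 to 28.2 kb from the gene start, with a median of 20.8 kb. The median over all 1774 regions was 59.7 kb, and the median over the 64 regions of the 60 other genes that could be given a symbol was 59.9 kb. All 5 members were thus within 30 kb of a gene start, a limit chosen after these distances were seen, and 34.2% of all regions were that close. In all, 0.564% of all regions overlapped the start of the nearest gene, and no member did. The regions were 500 to 650 bp long, and the median of all regions was 500 bp.

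The C2cd2 region was 3.48 Mb from that of Dyrk1a and 14.8 Mb from that of Cd47 on chromosome 11, and the Anxa3 and Scarb2 regions were 2.60 Mb apart on chromosome 14. Among the 65 genes with a region that could be given a symbol, 41.5% lay on chromosome 11 or 14, against 8.12% of all regions. The symbols used here covered only some of the identifiers, so nothing is read from the chromosomes of the members.

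The promoters of C2cd2 and Cd47, the genes with a region inside them, are shown because they held the fewest and the most copies of the GC-rich core of the Egr1 motif among the promoters of C2cd2, Cd47, Scarb2 and Anxa3. Each is 250 bases before to 50 bases after the RefSeq gene start of the GRCr8 build, on the strand of the gene, and capitals mark GGGCG or its reverse complement CGCCC. These windows do not contain the Egr1 regions, which lie kilobases away.
C2cd2, chr11:50758967-50759266, minus strand: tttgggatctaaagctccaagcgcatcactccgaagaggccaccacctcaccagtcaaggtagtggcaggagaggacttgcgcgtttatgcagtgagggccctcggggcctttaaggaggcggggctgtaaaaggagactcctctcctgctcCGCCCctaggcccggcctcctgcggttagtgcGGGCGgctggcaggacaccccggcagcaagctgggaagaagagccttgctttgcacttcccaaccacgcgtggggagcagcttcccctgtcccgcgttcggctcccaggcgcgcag
Cd47, chr11:64438139-64438438, minus strand: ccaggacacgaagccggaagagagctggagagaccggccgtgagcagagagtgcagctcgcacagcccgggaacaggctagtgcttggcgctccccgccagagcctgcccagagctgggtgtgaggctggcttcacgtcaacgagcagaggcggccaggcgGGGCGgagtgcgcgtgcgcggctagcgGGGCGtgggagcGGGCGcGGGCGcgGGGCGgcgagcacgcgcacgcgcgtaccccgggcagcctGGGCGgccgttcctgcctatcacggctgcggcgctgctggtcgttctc

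The full Egr1 motif GCGTGGGCG, searched on both strands, was in 0 of the 4 promoters and in 0.544% of all 33469 promoters of the same length. The core GGGCG, which is contained in the full motif and is also the core of the GC box, was in 4 of 4 promoters and in 44.8% of all promoters. It occurred 6 times in the Cd47 promoter, 4 times in that of Anxa3, 3 times in that of Scarb2 and 2 times in that of C2cd2. The Cd47 promoter also held 5 matches to at least 8 of the 9 letters of the full motif, a looser search added after the first result was seen, and some of these overlap the GGGCG copies. The promoters of C2cd2, Scarb2 and Anxa3 held no such match, and 12.5% of all promoters did. The GC content was 64.0% for C2cd2, 73.3% for Cd47, 69.7% for Scarb2 and 65.3% for Anxa3, all above the median of 51.7% over all promoters. A match is a description of letters and says nothing about occupancy.

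The deposited regions gave the normalized reads of every library, that is, read counts scaled for sequencing depth. In proestrus, 1 read was worth 1.32 and 0.695 normalized reads in the first and the second library. In diestrus it was worth 0.853, 1.26, 1.06 and 1.04 in the first to the fourth. The order within a group is that of the deposited values, which carry no sample names. Dividing by these steps gave whole reads for all 30 member values to within 0.1 reads. The ratio of reads per depth has an exact Clopper-Pearson 95% interval, which covers counting error only and not the spread between animals. The reads behind it are those by which the regions were listed as different. The choice thus favoured intervals that leave out 1, and they are no test.

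At the upstream region of Dyrk1a, the kinase gene, the proestrus libraries had 5.26 and 4.87 normalized reads, from 4 and 7 reads. The diestrus libraries had 0, 0, 1.06 and 0, a single read in all. The groups did not overlap. Proestrus averaged 5.06 ± 0.276 (SD, n = 2) and diestrus 0.265 ± 0.530 (SD, n = 4), a log2 ratio of 4.26 or 19.1-fold. With 0.5 normalized reads added to each mean the log2 ratio was 2.86. The ratio rests on 1 diestrus read, and the interval of the read ratio ran from 2.81 to 834. Without the third diestrus library no diestrus read was left, and the ratio of reads per depth was at least 4.88-fold against a chosen floor of 3 reads over the group. Whether the difference in reads is a difference in Egr1 binding was not tested. These are bulk tissue punches, so the number of cells with Egr1 bound and the binding per cell cannot be told apart here or at the other regions.

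At the region inside C2cd2, the C2-domain gene, the proestrus libraries had 10.52 and 4.17 normalized reads and the diestrus libraries had 0, 0, 3.18 and 1.04. The groups did not overlap, but the lower proestrus library exceeded the highest diestrus library by only 0.990 normalized reads, or 1.31 times. Proestrus averaged 7.34 ± 4.49 (SD, n = 2) and diestrus 1.06 ± 1.50 (SD, n = 4), a log2 ratio of 2.80 or 6.96-fold. The proestrus libraries lay further apart in normalized reads than at any other member. The log2 ratio was 1.98 without the first proestrus library and 4.41 without the third diestrus library. The read ratio was 6.16, with an interval of 1.94 to 25.7.

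At the region inside Cd47, the gene of the Sirpa ligand, the proestrus libraries had 5.26 and 6.26 normalized reads. The diestrus libraries had 0.85, 0, 1.06 and 1.04. Every diestrus library had at most 1 read, and the groups did not overlap. Proestrus averaged 5.76 ± 0.707 (SD, n = 2) and diestrus 0.738 ± 0.501 (SD, n = 4), a log2 ratio of 2.97 or 7.81-fold, and of 2.34 with 0.5 normalized reads added to each mean. The read ratio was 7.63, with an interval of 2.10 to 41.7.

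At the region upstream of Scarb2, the gene of the lysosomal protein LIMP-2, the proestrus libraries had 7.89 and 6.26 normalized reads and the diestrus libraries had 1.71, 0, 1.06 and 1.04. The lower proestrus library was 3.66 times the highest diestrus library, and the groups did not overlap. Proestrus averaged 7.07 ± 1.15 (SD, n = 2) and diestrus 0.953 ± 0.707 (SD, n = 4), a log2 ratio of 2.89 or 7.43-fold. The read ratio was 6.60, with an interval of 2.10 to 27.3.

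At the region upstream of Anxa3, the annexin gene, the proestrus libraries had 5.26 and 4.17 normalized reads, from 4 and 6 reads, and no diestrus library had a read. It was the only member without a diestrus read, as were 9.17% of the regions higher in proestrus. Proestrus averaged 4.71 ± 0.771 (SD, n = 2), which was at least 5.87-fold higher than diestrus against the floor of 3 reads over the group. The lower bound of the read ratio's interval was 3.95.

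**Figure D2:**
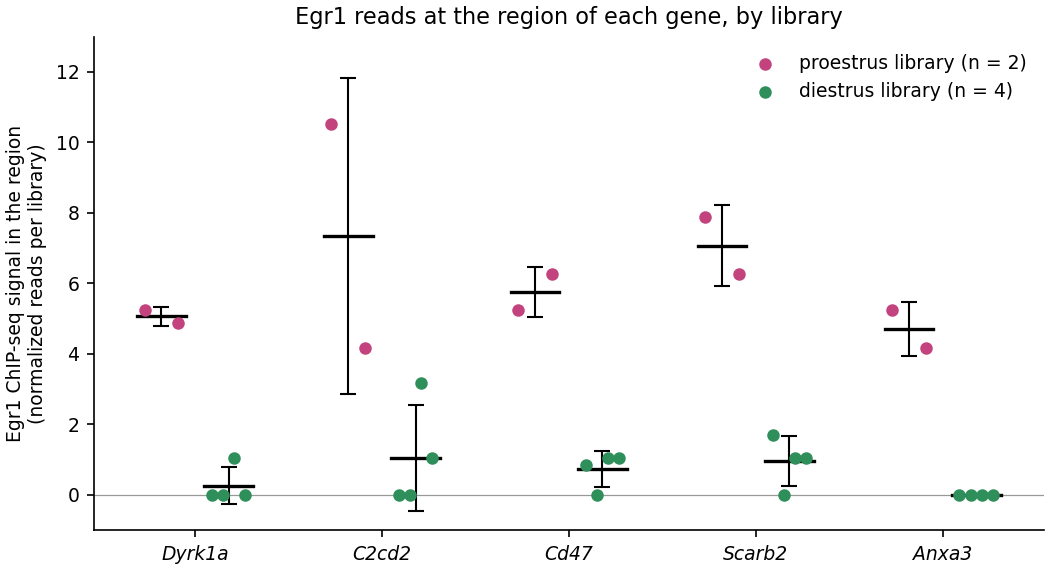
Normalized Egr1 ChIP-seq reads (y axis) at the region of each of the 5 genes (x axis). Points are libraries (pink, proestrus, n = 2; green, diestrus, n = 4), long bars are group means and whiskers are the SD, which reaches below 0 for some diestrus groups. Both proestrus points lie above all diestrus points at each gene, with the smallest gap, 0.990, at C2cd2.

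The order of the proestrus means was C2cd2, Scarb2, Cd47, Dyrk1a and Anxa3, from 7.34 to 4.71 normalized reads. Counted as reads per unit of relative depth in the proestrus libraries, the highest was Scarb2 with 6.82 and an exact Poisson 95% interval of 3.82 to 11.3. The lowest was Anxa3 with 4.55 and an interval of 2.18 to 8.37. The intervals of all 5 overlapped, but with 10 to 15 proestrus reads a region this says little, and the order is a description. Over all regions higher in proestrus, the quartiles of the proestrus mean were 5.76 and 7.42 normalized reads. Among those regions the proestrus mean was at percentile 72.1 for C2cd2, 66.9 for Scarb2, 27.2 for Cd47, 12.8 for Dyrk1a and 6.13 for Anxa3.

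Higher signal in proestrus was found at 5 of 5 members and at 98.4% of all proestrus versus diestrus regions. Both proestrus libraries were above every diestrus library at 5 of 5 members and at 98.1% of all regions. The authors' listing had selected for such differences, and the members' shares add nothing to it. Requiring the lower proestrus library to be at least 2 times the highest diestrus library left 4 of the 5, all but C2cd2, and 86.9% of all regions. The median log2 ratio over the members was 2.97, with Anxa3 counted as above the others, and over the regions higher in proestrus it was 3.06.

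The regions of the 5 genes held few reads. Their totals over the 6 libraries were 12 for Dyrk1a, 18 for C2cd2, 16 for Cd47, 19 for Scarb2 and 10 for Anxa3. All were under 20 reads, as were 73.1% of the regions higher in proestrus, whose median was 17 and smallest total 9. Anxa3 was thus at percentile 5.36 and Scarb2 at percentile 68.1 of reads among those regions, as the plot of reads against ratio shows. Together the 5 regions held 75 reads, 63 of them in proestrus, and the proestrus libraries made up 36.2% of the summed relative depth of the 6 libraries.

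**Figure D3:**
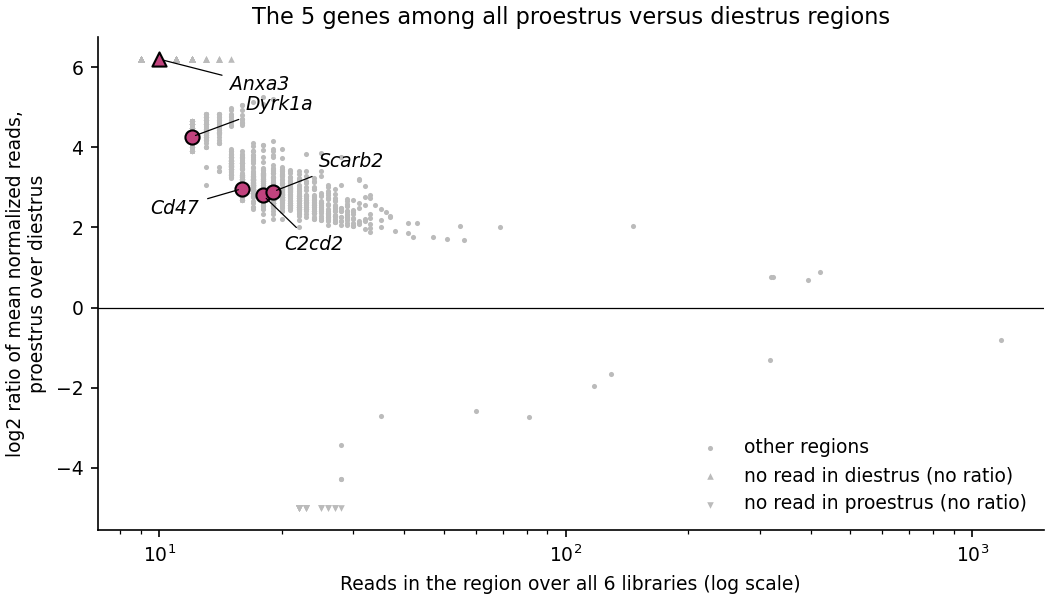
Log2 ratio of mean normalized reads, proestrus over diestrus (y axis), against reads over all 6 libraries (x axis, log scale) for the 1774 regions (grey), with the 5 genes in pink. Triangles along the top and bottom edges are regions with no diestrus or no proestrus read and hence no ratio, Anxa3 among those at the top, and all 5 genes sit among the regions with 10 to 19 reads.

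Of the 20 diestrus values at the 5 regions, 11 were 0, and 7 were a single read. The share at 0 was 55.0%, and it was 49.3% over all regions higher in proestrus. The second diestrus library had no read at any of the 5, and it had none at 60.1% of the regions higher in proestrus. It also had the smallest relative depth of the 4 diestrus libraries. The first diestrus library had no read at 3 members, the third at 1 and the fourth at 2. The part of depth in these zeros was not tested. The relative depth differed 1.89 times between the proestrus libraries and 1.48 times among the diestrus libraries.

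The deposited values also gave an enrichment of each group mean over a background, a ratio whose background the sources used here do not describe. The paper states that an Input library was made for each sample beside the precipitated one. Whether the background came from those Input libraries is not stated. In proestrus it was 1.11 for Dyrk1a, 2.62 for C2cd2, 1.82 for Cd47, 2.54 for Scarb2 and 5.41 for Anxa3. In diestrus all 5 values were below 1, at 0.110, 0.410, 0.290, 0.300 and 0 in the same order, as were 97.0% of all regions. The median proestrus enrichment over the regions higher in proestrus was 2.68. Dyrk1a, whose ratio between the stages was the largest of the 4 that could be computed, was at percentile 1.40 of proestrus enrichment, and Anxa3, with the fewest reads, was at percentile 89.3.

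Dividing each mean by its enrichment gave the background in normalized reads. At Dyrk1a it was 4.56 in proestrus and 2.41 in diestrus, a log2 ratio of 0.92, with 0.85 to 0.99 allowed by the rounding of the deposited enrichments. The log2 ratio of the background was 0.12 at C2cd2, 0.32 at Cd47 and -0.19 at Scarb2, and its median over the regions higher in proestrus was -0.02. At Anxa3 the proestrus background was 0.872, the smallest of the 5, and the diestrus background could not be computed from an enrichment of 0. The log2 ratio of the enrichments themselves was 3.33 at Dyrk1a, 2.68 at C2cd2, 2.65 at Cd47 and 3.08 at Scarb2. The numerators are the means by which the regions were listed, and the proestrus enrichment was above the diestrus enrichment at 98.4% of all regions. At Dyrk1a the background was also higher in proestrus. Its part in the Dyrk1a result was not tested.

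**Figure D4:**
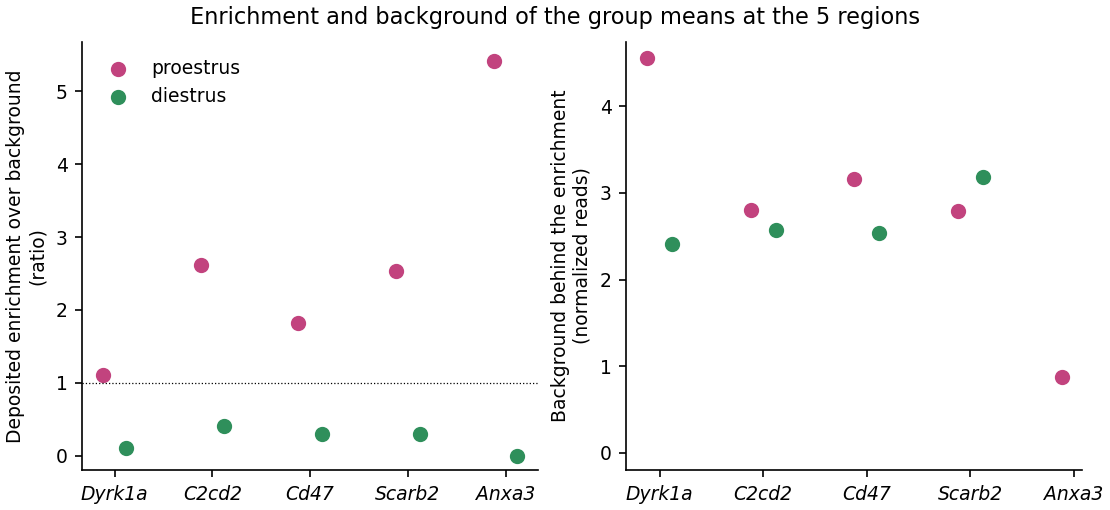
Deposited enrichment over background (left, ratio, dotted line at 1) and the background that it implies (right, normalized reads) for the group means at the 5 regions (x axes), proestrus in pink and diestrus in green. Proestrus enrichment ran from 1.11 at Dyrk1a to 5.41 at Anxa3, and the background was higher in proestrus at Dyrk1a (4.56 against 2.41); Anxa3 has no diestrus background.

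None of the 5 genes was the nearest gene of a region in proestrus versus males (0 of 5), whereas 32.6% of the 1554 genes nearest to a proestrus versus diestrus region were. Likewise 0 of 5 had a region in diestrus versus males, against 8.11% of the 1554 genes. Having no region in either comparison with males was true of 63.3% of those genes. The tables used here list only called regions, so the male signal at the 5 positions was not analysed here. The comparisons also share libraries. The nearest region of proestrus versus males was 389 kb away from that of Dyrk1a, 1353 kb from C2cd2, 1219 kb from Cd47, 865 kb from Scarb2 and 768 kb from Anxa3. The median of that gap over all proestrus versus diestrus regions was 330 kb, with quartiles of 80.4 and 855 kb. All 5 gaps were above that median, and those of C2cd2, Cd47 and Scarb2 were above the upper quartile. The nearest region of diestrus versus males was 3265 kb from that of Dyrk1a, 210 kb from C2cd2, 383 kb from Cd47, 2408 kb from Scarb2 and 1946 kb from Anxa3. The median of this gap over all regions was 1405 kb, with quartiles of 577 and 2891 kb. The members thus lay on both sides of that median, with C2cd2 and Cd47 below the lower quartile and Dyrk1a above the upper quartile.

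Within 1 Mb of the members lay a median of 2 other regions of any comparison, and the median over all proestrus versus diestrus regions was 4. Scarb2 had 3 other proestrus versus diestrus regions within 1 Mb, Anxa3 had 2, Dyrk1a and C2cd2 had 1 each, and Cd47 had 0. The mean at each of those neighbours was higher in proestrus, with log2 ratios from 2.34 to 3.34, as it was at 98.4% of all proestrus versus diestrus regions.

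Genes with a symbol and a region within 1 Mb of a member were Hlcs, Bbx and Parm1, and their regions came from the comparisons with males. Hlcs encodes holocarboxylase synthetase, which attaches biotin to carboxylases. A region inside it, 389 kb from that of Dyrk1a, had 0.405 ± 0.573 normalized reads (SD) in the 2 proestrus libraries, against 7.72 ± 1.02 (SD) in the 3 male libraries, a log2 ratio of -4.25. Bbx encodes a protein with an HMG box, a DNA-binding domain. A region inside it, 383 kb from that of Cd47, had 0.932 ± 0.628 (SD) in the 4 diestrus libraries, against 6.21 ± 0.485 (SD) in the 3 male libraries, a log2 ratio of -2.74. Parm1 encodes a mucin-like membrane protein. A region downstream of it, 865 kb from that of Scarb2, had 6.12 ± 1.66 (SD) in the 2 proestrus libraries, against 0.610 ± 1.06 (SD) in the 3 male libraries, a log2 ratio of 3.33. The Parm1 region thus had the higher mean in proestrus females, whereas the Hlcs and Bbx regions had the higher mean in males. These regions were listed because they differed, so their ratios carry no test here.

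Relatives and partners of the members were looked for as well: the other Dyrk kinases, C2cd2l, the Cd47 partners Sirpa, Thbs1, Thbs2, Itgav and Itgb3, the scavenger receptors Scarb1 and Cd36, 7 other annexins, and the Egr family. Of these 23 genes only Scarb1 and Egr2 could be paired with an identifier, and 0 of these 2 had a region in any of the comparisons. The others were not analysed here.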

How the data were processed

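Egr1 ChIP-seq was analysed for 2 proestrus, 4 diestrus and 3 male rats, grouped by the estrous stage in the labels. Chromatin had been sheared to fragments of 200 to 500 bp and precipitated with 4 µg of antibody. Per the labels, the submitters' processing notes name Trimmomatic 0.32, Bowtie2 2.1.0, SAMtools 0.1.19, Picard 1.84 and Rnor_5.0. Unique reads with a mapping quality of at least 30 were kept, duplicates and outlier libraries were removed, groups were compared in pairs with DiffReps, and ChIPpeakAnno assigned the nearest gene. The sources used here do not give the window, cut-off or normalization. The tables used here list only called regions, and regions without a difference were not analysed here.

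The deposited lists hold normalized reads (signal) per library, without sample names, and the authors' means. A further deposited column is the ratio of each mean to a background (enrichment). Deposited fold changes and p-values of the authors' comparisons were not used. Each library's value of 1 read was found from the steps of its values (31602 of 31606 values whole within 0.1 reads). Ratios of group means, SDs, exact Clopper-Pearson and Poisson 95% intervals (counting error only) and a floor of 3 reads over a group were computed with scipy 1.17.1, pandas 2.3.3 and numpy 2.4.6 under Python 3.11.15. On simulated lists, 100% of reads were recovered in proestrus versus diestrus (10644 values). No test was run, because the members were chosen by the same contrast. The sequencing pool of each library could not be tied to the listed values. Antibody signal holds no RNA markers, so the labelled tissue was not checked.

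The named genes are the 5 members, 23 related genes, and genes with a symbol that have a region within 1 Mb. Kit and Gabra2 fall outside this rule and were named after they seemed to meet both listings. A further related gene is not reported here. The members and lists were chosen with earlier results of these data known. Promoters came from RefSeq (GRCr8), where 4 of the 5 members matched by symbol. Alternatives were leaving out each library, adding 0.5 normalized reads, summed reads, enrichment ratios, other distance and overlap limits, a minimum of 20 reads, and looser motifs.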

Additional observations from a re-analysis of the deposited data

Results flagged for a closer look

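In diestrus, 1 library stood apart from the other three at the Dyrk1a region: it had 1.06 normalized reads, which is 1 read, and the others had 0. Of the 4 diestrus groups with any read, this was the 1 in which a library stood apart by Dixon's criterion. The usual rate of about 1 in 20 groups by chance does not apply to counts this low. A single read with 0 in the other libraries always meets the criterion, so nothing is read from the flag.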

How the results depend on the processing

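All 42 alternative log2 ratios of proestrus over diestrus were positive at the 5 regions. Of all proestrus versus diestrus regions, 98.4% were higher in proestrus. The 5 were chosen for a difference in this contrast, so their direction is no test. For Anxa3 the lower bound set by the floor of 3 reads was 2.55 on the log2 scale. It ranged from 2.03 to 2.76 when a library was left out. The values without a diestrus library were 2.03 to 2.22, where the floor of 3 reads applies to fewer libraries. With 0.5 normalized reads added to each mean the value was 3.38, which is not a bound. Leaving out a library gave 3.84 to 4.31 for Dyrk1a, where no ratio could be formed without the third diestrus library, 1.98 to 4.41 for C2cd2, 2.55 to 3.19 for Cd47 and 2.48 to 3.34 for Scarb2. With 0.5 added, the ratio was 2.86 at Dyrk1a, 2.33 at C2cd2, 2.34 at Cd47 and 2.38 at Scarb2. Counting regions up to 100 kb from a gene raised the members near or inside their gene from 2 to 5, as 69.7% of all regions were that close, whereas a limit of 5 kb left 2, with 28.9% of all regions. Requiring at least 20 reads left 0 of the 5 members, so that each result rests on fewer reads than that. Overlap of at least 1 bp or a gap of at most 10 kb still gave 0 members with a region in either comparison with males. Over all regions, 11.8% overlapped a region of proestrus versus males and 1.07% one of diestrus versus males, and 14.3% and 2.03% were at most 10 kb from one, so that 0 of 5 is near these shares. Of the promoters, 1 held at least 8 of 9 letters of the Egr1 motif and 0 held GCGGGGGCG, which 2.73% of all promoters held; both searches were chosen after seeing the data. No paired analysis was possible because the deposited lists carry no sample names or numbers and no test was run.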
